A study of Mus musculus with 9 samples.

Results

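The BCL2 family genes described here are Bcl2, Bcl2l1, Mcl1, Bax, Bak1, Bbc3, Pmaip1, Bcl2l11, Bid and Bad, chosen by gene symbol as 10 of the 24060 named rows of a count table of sorted mouse bone marrow progenitors. The cells were LSK cells (lineage low, Sca1+, Kit+), a gate that holds haematopoietic stem cells and multipotent progenitors. They came from lethally irradiated congenic CD45.1 mice that had received bone marrow together with CD45.1 helper cells. The donor marrow was from C57BL/6 mice (control, n = 3 libraries), from mice carrying the NUP98-HOXD13 fusion as a transgene under the Vav promoter, which drives expression throughout blood cells (NHD13, n = 2), or from NHD13 mice that also carried a doxycycline-inducible MSI2 transgene at the Col1A1 locus and the rtTA transactivator at ROSA26 (NHD13/MSI2, n = 4). NHD13 mice are a model of myelodysplastic syndrome, and MSI2 is an RNA-binding protein. Per the labels every sample was of strain C57BL/6 and 4 months of age. The study counts this time from transplantation. The methods give 3 months of doxycycline before sampling, only the library names of NHD13/MSI2 carry the word dox, and whether the other groups were fed doxycycline is not given in the sources used here. The cells are described as those of transplanted animals, with as many per group as there are libraries. The labels do not tie a library to an animal, and whether animals shared a donor or were pooled is not given in the sources used here, so p-values measure the spread between libraries.

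BCL2 family proteins decide whether the outer mitochondrial membrane stays intact. Survival proteins (BCL2, BCL-XL from Bcl2l1, MCL1) hold the pore-forming effectors BAX and BAK in check, and BH3-only proteins (PUMA from Bbc3, NOXA from Pmaip1, BIM from Bcl2l11, BID, BAD) bind the survival proteins or activate the effectors, after which cytochrome c leaves the mitochondrion and caspases are activated. MCL1 is known to be required for the survival of haematopoietic stem cells, and NOXA binds MCL1 in preference to BCL2. Many of these proteins are also controlled by phosphorylation, cleavage and degradation, none of which a transcript count measures.

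The libraries held 19242153 to 23013493 counts on named rows, so 3 counts, taken as the detection floor, corresponded to at most 0.156 CPM (counts per 1000000 counts of a library) before scaling. All 10 genes were counted in each library and entered the test, although Bbc3 rested on 4 to 28 counts per library. Of the transcripts of the gate, Kit was at 1775 to 2254 CPM in control, 1121 and 1932 CPM in NHD13 and 908 to 1403 CPM in NHD13/MSI2, and Ly6a, which encodes Sca1, was at 79.3 to 89.8, 48.3 to 69.0 and 98.6 to 375 CPM. The progenitor marker Cd34 and the leukocyte marker Ptprc were also detected in every library. Several features divided the libraries along with or within the groups. Transcripts of 6 granulocyte and monocyte genes summed to 1742 to 2447 CPM in control, 3500 to 4412 CPM in NHD13 and 9129 to 15495 CPM in NHD13/MSI2. Most of this sum was Mpo, and of the others only Csf1r was ordered in the same way without overlap (9.02 to 15.5, 94.9 to 122 and 281 to 473 CPM), whereas Elane, Ctsg and Prtn3 overlapped between groups and Csf3r was lowest in NHD13. The 6 B-cell genes summed to 45.7 to 57.5, 81.9 to 127 and 262 to 448 CPM, with Cd79a and Cd79b leading, while Ms4a1 stayed under 1 CPM in every library. The sum of 3 endothelial genes, nearly all of it Pecam1, was 150 to 174, 303 to 341 and 438 to 559 CPM, and Cdh5 was under 1 CPM throughout. The summed level of 4 multipotent and lymphoid-primed genes was 892 to 1114, 603 to 804 and 294 to 513 CPM, carried by Flt3 and Dntt, while Notch1 was ordered the other way (59.7 to 80.9, 101 to 183 and 128 to 290 CPM). Hoxd13 was at 0 in the controls and at 0.648 to 1.13 CPM in all 6 libraries of the other groups. The mouse Msi2 row was at 77.1 to 88.0 CPM in NHD13/MSI2 replicates 1 to 3 and 241 CPM in replicate 4, against 111 to 139 CPM in NHD13 and 223 to 316 CPM in control. The label of the NHD13/MSI2 group is therefore not borne out by this row. Whether reads of the transgene are counted on this row is not given in the sources used here, so each direction for that group rests on its label. Replicate 4 of NHD13/MSI2 stood apart, with 25.6% of 12332 genes more than 2-fold away from the mean of replicates 1 to 3. The X-inactivation transcript Xist divided the controls, with 888 CPM in replicate 1, 866 CPM in replicate 3 and 2.33 CPM in replicate 2. It did not exceed 1.90 CPM in the NHD13 and NHD13/MSI2 libraries. The Y-chromosome gene Eif2s3y split the controls in reverse, with 138 CPM in replicate 2 and at most 0.123 CPM in replicates 1 and 3. Every NHD13 and NHD13/MSI2 library held 122 to 180 CPM of it. By these transcripts control replicates 1 and 3 were female and the other libraries male. Sex therefore differed in part along with group in each comparison over control. Apart from the fit below with control replicate 2 alone as control, its part was not tested. The name of control replicate 1 carries the word bulk and those of control replicates 2 and 3 the words MPP and HSC. The labels group all of them as control and do not say whether these words name different sorted populations. If they do, the spread between controls is not that of replicates of 1 population.

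In the libraries labelled NHD13/MSI2, the effector Bax and the BH3-only genes Pmaip1, Bcl2l11 and Bid were higher than in control, and none of the 10 genes was lower. Pmaip1 showed the largest difference, 34.9-fold, followed by Bid at 2.33-fold, Bcl2l11 at 2.03-fold and Bax at 1.83-fold. In NHD13 over control Pmaip1 alone passed the threshold, at 14.8-fold. Between NHD13/MSI2 and NHD13, groups that by label differ in induced MSI2, none of the 10 genes passed. As described above, the donors also differed in the rtTA transactivator, and doxycycline feeding of NHD13 mice is not given. This comparison therefore does not isolate MSI2. The threshold was an adjusted p under 0.01 (Benjamini-Hochberg over the 13355 genes tested) in the quasi-likelihood test of edgeR, in 1 fit of all 9 libraries, and all adjusted p-values below come from it unless another fit is named. In bulk RNA, a change in the share of cells that express a gene and a change in the RNA per cell cannot be told apart.

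The counts are to be read against the background. In NHD13/MSI2 over control 4 of 10 members were called higher where 4.49% of all genes tested were, and 0 were called lower where 6.55% of all genes were. In NHD13 over control 1 of 10 was higher against 0.824% of all genes, and 0 were lower against 0.21%. In NHD13/MSI2 over NHD13 0 were higher against 0.584% and 0 were lower against 2.58%. In this last comparison DESeq2 also called 0 of 10, and an unadjusted p under 0.05 was reached by Bax and Pmaip1, 2 of 10, against 21.7% of all genes. The CPM ranges of the groups were disjoint for 6 members in NHD13/MSI2 and control (Bcl2, Bax, Pmaip1, Bcl2l11, Bid, Bad), where 35.7% of all genes were, for the same 6 in NHD13 and control, where 37.4% were, and for 2 in NHD13/MSI2 and NHD13 (Bcl2, Pmaip1), where 29.9% were. The log2 fold changes of the 10 genes had a median of 0.77 in NHD13/MSI2 over control, 0.39 in NHD13 over control and 0.27 in NHD13/MSI2 over NHD13, while those of all genes tested had medians of −0.011, 0.017 and −0.028. The comparisons share libraries and are not independent of each other. With control replicate 2, which was low in Xist like the NHD13 groups, as the only control, the log2 fold changes in NHD13/MSI2 were 5.25 for Pmaip1, 1.18 for Bid, 0.82 for Bcl2l11 and 0.88 for Bax, and none of the 10 genes passed the threshold in this fit of fewer libraries.

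**Figure D1:**
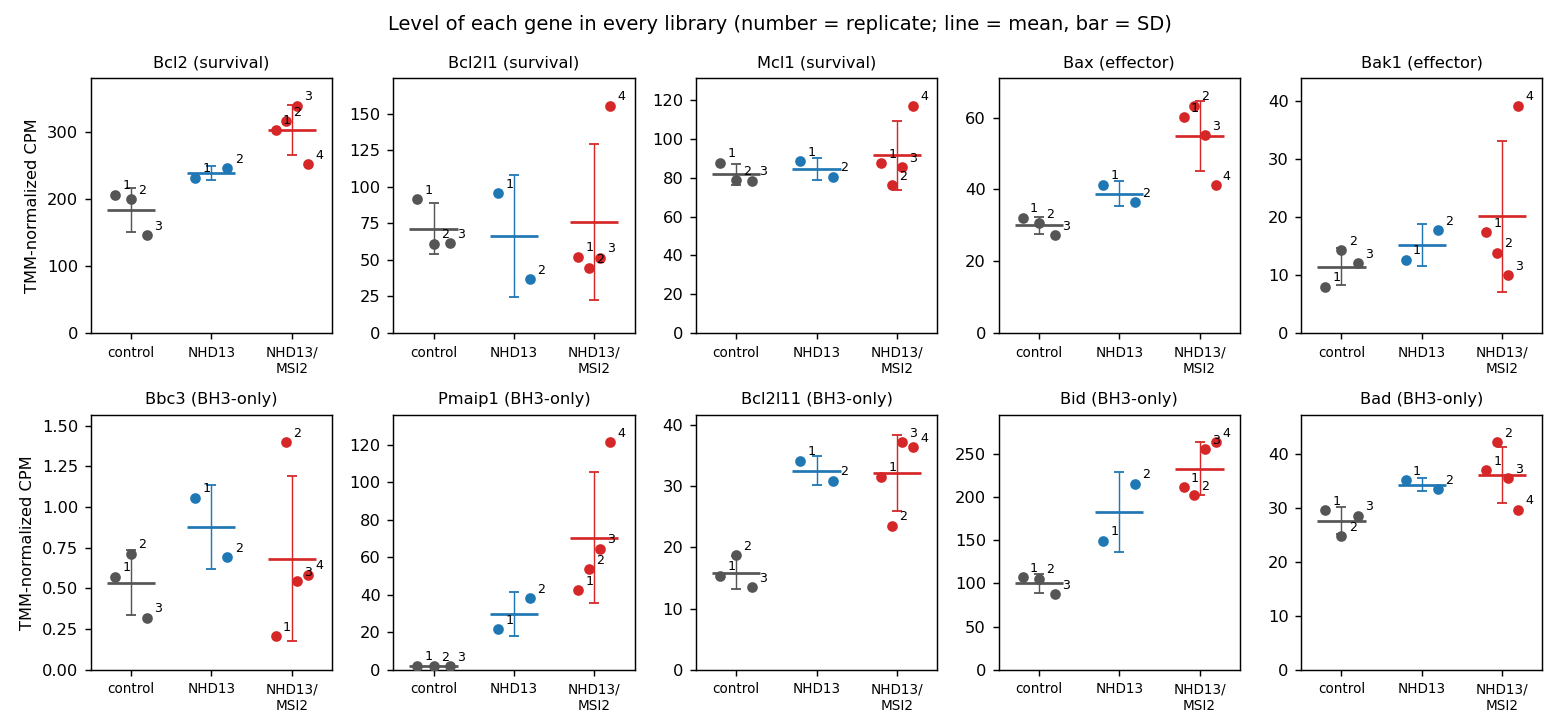
Level of each of the 10 genes (vertical axis, TMM-normalized CPM, from 0, a separate scale per gene) in control, NHD13 and NHD13/MSI2; each numbered point is 1 library, lines are means and bars SD. Pmaip1 was near 2 CPM in the controls and at 21.6 CPM or more elsewhere, and replicate 4 of NHD13/MSI2 was the highest library for Bcl2l1, Mcl1, Bak1, Pmaip1 and Bid.

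Pmaip1 encodes NOXA, a short BH3-only protein known as a p53 target, and lies on the plus strand at chr18:66458533-66465565 (GRCm38, GENCODE M21). Its level was 2.25, 1.90 and 1.88 CPM in the 3 controls, 21.6 and 38.1 CPM in the 2 NHD13 libraries and 42.5, 53.7, 64.5 and 121 CPM in the 4 libraries labelled NHD13/MSI2. The 3 groups did not overlap, and the controls were close together while the other groups spread widely. Control replicate 2, which shared low Xist with the NHD13 groups, was at the level of the other controls. Over control the NHD13/MSI2 libraries had a log2 fold change of 5.13 (standard error (SE) 0.44, adjusted p = 0.000112), which placed it 87th of 13355 genes by p. In NHD13 over control it was 3.89 (SE 0.45, adjusted p = 0.00196). The call in NHD13/MSI2 held in each of the 9 fits that left out 1 library, with log2 fold changes of 4.74 to 5.32. The call in NHD13 was lost without any 1 of the 3 controls or without NHD13 replicate 2 (adjusted p from 0.0115 to 0.0178), at log2 fold changes of 3.41 or more. Between NHD13/MSI2 and NHD13 the log2 fold change was 1.24 (95% interval 0.30 to 2.17, adjusted p = 0.110), and 0.86 without replicate 4 (adjusted p = 0.0739), so this difference did not pass the threshold. The levels of Mpo and Csf1r and the B-cell and endothelial sums named above were ordered across the 3 groups as Pmaip1 was, and their part in its level and in those of Bid, Bcl2l11 and Bax was not tested.

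Bid, which encodes the BH3-only protein that caspase 8 cleaves to link death receptors to mitochondria, is on the minus strand at chr6:120891930-120916853. It was at 107, 106 and 87.6 CPM in control, 150 and 215 CPM in NHD13 and 211, 202, 255 and 263 CPM in NHD13/MSI2. Every NHD13 and NHD13/MSI2 library was above every control, and NHD13 replicate 2 was within the NHD13/MSI2 range. Its log2 fold change over control was 1.22 in NHD13/MSI2 (SE 0.18, adjusted p = 0.00152) and 0.87 in NHD13 (SE 0.20, adjusted p = 0.0612). The first call was kept in 8 of 9 fits without 1 library and lost without control replicate 3 (adjusted p = 0.0115). The Bid exons share 17.7% of their bases with Bcl2l13 on the other strand, and strand use in counting is not given in the sources used here. Bcl2l13 itself was at 60.9 ± 2.76 CPM in control (SD, n = 3) and 54.4 ± 7.70 CPM in NHD13/MSI2 (SD, n = 4).

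Bcl2l11, on the plus strand at chr2:128126038-128162547, encodes BIM, the BH3-only protein that binds all survival members and is known from the death of cytokine-deprived blood cells. It was at 15.4, 18.7 and 13.5 CPM in control, 34.2 and 30.9 CPM in NHD13 and 31.6, 23.6, 37.2 and 36.4 CPM in NHD13/MSI2. The controls lay below all other libraries, and the NHD13 libraries lay inside the NHD13/MSI2 range. Bcl2l11 had a log2 fold change of 1.02 in NHD13/MSI2 over control (SE 0.21, adjusted p = 0.00726) and 1.04 in NHD13 over control (SE 0.24, adjusted p = 0.0534). Only the first passed the threshold, but the fold changes were close, and the one between NHD13/MSI2 and NHD13 was −0.017 with a 95% interval of −0.53 to 0.49. The NHD13/MSI2 call was kept in 3 of 9 fits without 1 library (adjusted p up to 0.0405, without control replicate 3) and was lost with the replicate number as a block (adjusted p = 0.0263).

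Bax, the pore-forming effector, is on the minus strand at chr7:45461697-45466898. It was at 32.1, 30.5 and 27.3 CPM in control, 41.3 and 36.4 CPM in NHD13 and 60.0, 63.3, 55.1 and 41.1 CPM in NHD13/MSI2. Replicate 4 was the lowest of its group, 1.45-fold below the mean of replicates 1 to 3, and sat between the NHD13 libraries. Bax had a log2 fold change of 0.87 in NHD13/MSI2 over control (SE 0.17, adjusted p = 0.00678), 0.37 in NHD13 over control (SE 0.20, adjusted p = 0.504) and 0.50 in NHD13/MSI2 over NHD13 (SE 0.20, adjusted p = 0.171). Without replicate 4 the last was 0.63 (adjusted p = 0.0141), still short of the threshold. The call over control was kept in 3 of 9 fits without 1 library and had adjusted p-values up to 0.0386, without control replicate 3. Of the Bax exon bases, 12.2% are shared with Gm45808 on the same strand, so reads there cannot be assigned to either.

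**Figure D2:**
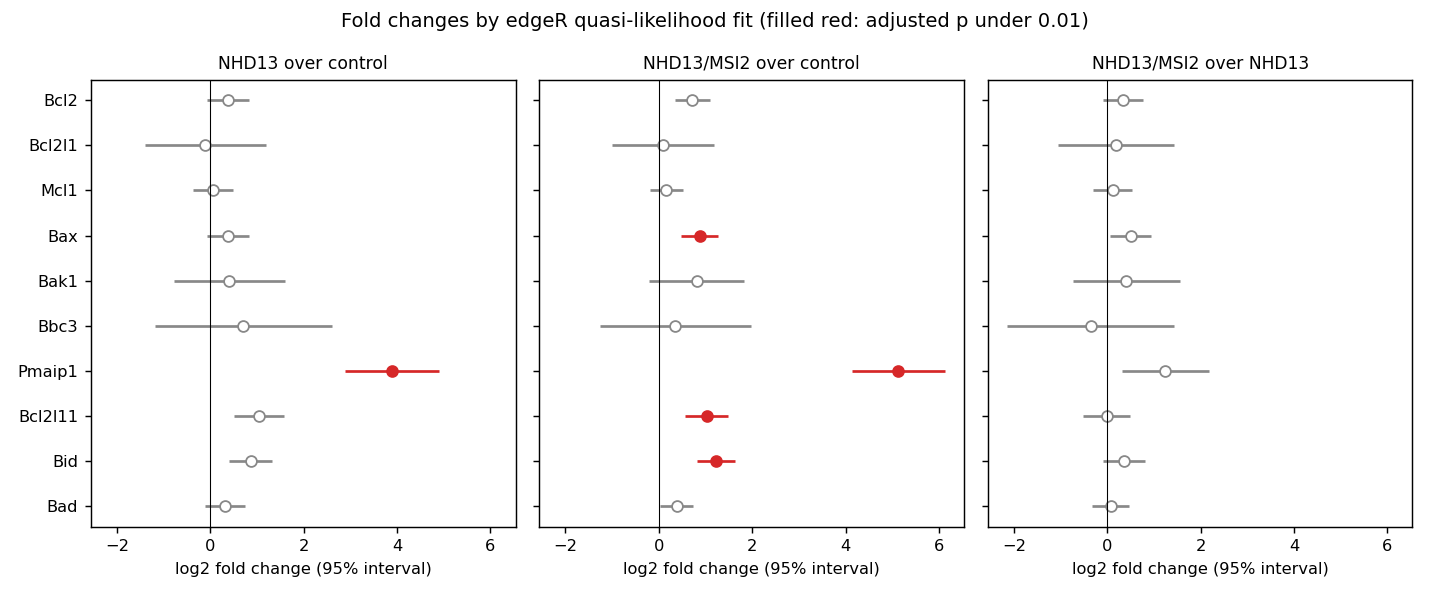
Log2 fold change of each gene (points, horizontal axis) with its 95% interval (lines) in each of the 3 comparisons, from edgeR's quasi-likelihood fit of all 9 libraries; filled red marks an adjusted p under 0.01. The 4 called genes in NHD13/MSI2 over control were Bax, Pmaip1, Bcl2l11 and Bid, and only Pmaip1 was called in NHD13 over control.

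The 3 called genes with an entry in the RefSeq promoter table (GRCm38.p6; 9 of the 10 genes have an entry, Pmaip1 has none) are shown by their start regions, because they were higher together over control. Each sequence runs 5′ to 3′ on the gene's strand from 250 bases before to 50 bases after the annotated start, and capitals mark a GC box (GGGCGG) or a CCAAT box (CCAAT) on either strand, and no box in capitals overlaps another. The Bax region is chr7:45466849-45467148 (minus strand), that of Bcl2l11 is chr2:128125788-128126087 (plus strand) and that of Bid is chr6:120916775-120917074 (minus strand).
Bax: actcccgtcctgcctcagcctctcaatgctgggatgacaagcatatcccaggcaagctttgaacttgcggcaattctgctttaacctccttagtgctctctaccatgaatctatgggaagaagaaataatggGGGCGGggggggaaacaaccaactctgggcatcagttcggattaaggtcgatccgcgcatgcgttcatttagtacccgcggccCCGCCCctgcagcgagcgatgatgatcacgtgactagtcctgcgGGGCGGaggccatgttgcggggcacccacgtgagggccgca
Bcl2l11: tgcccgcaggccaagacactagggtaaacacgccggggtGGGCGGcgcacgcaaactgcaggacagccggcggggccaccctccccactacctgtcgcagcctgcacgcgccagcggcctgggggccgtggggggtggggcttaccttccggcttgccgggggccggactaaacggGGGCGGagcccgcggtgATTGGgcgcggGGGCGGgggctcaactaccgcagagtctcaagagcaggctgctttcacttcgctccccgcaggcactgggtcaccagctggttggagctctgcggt
Bid: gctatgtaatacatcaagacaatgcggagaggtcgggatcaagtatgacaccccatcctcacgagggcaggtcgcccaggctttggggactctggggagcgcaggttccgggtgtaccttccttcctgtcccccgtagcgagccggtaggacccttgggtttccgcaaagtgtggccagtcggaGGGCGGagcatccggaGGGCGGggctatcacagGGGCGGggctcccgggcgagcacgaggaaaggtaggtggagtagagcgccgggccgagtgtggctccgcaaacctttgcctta

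The 3 regions each held 3 GC boxes, and the GC share was 57.3% for Bax, 71% for Bcl2l11 and 63.3% for Bid. A GC box was present in an entry of 7 of the 9 genes and in 35.7% of all 32851 promoters of the table. A CCAAT box was present in 3 of 9 genes, Bcl2l11 among them, against 37.4% of promoters. The E-box CACGTG was found in 2 of 9 genes, with 2 copies in the Bax region, against 7.15% of promoters, and a p53 half-site in 1, Bax, against 8.36%. No entry of the 9 genes held TATAAA (13.6% of promoters) or CAATAAA (4.6%), a motif of posterior HOX proteins such as HOXD13. These matches describe letters in a window, and several genes have more than 1 entry, so the shares per gene and per promoter are not the same quantity. The GC-box shares do not separate called from uncalled genes, since Bcl2, Mcl1, Bbc3 and Bad also held the box.

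Among the survival genes, Bcl2 was at 207, 200 and 146 CPM in control, 232 and 246 CPM in NHD13 and 304, 317, 340 and 253 CPM in NHD13/MSI2. The groups did not overlap, with control lowest and NHD13/MSI2 highest. The log2 fold change of Bcl2 in NHD13/MSI2 over control was 0.72 (SE 0.17, adjusted p = 0.0148), short of the threshold. It passed when replicate 4 of that group was left out (0.81, adjusted p = 0.00287), with DESeq2 (adjusted p = 0.000376) and with the replicate number as a block (adjusted p = 0.00854). In NHD13 over control it was 0.38 (adjusted p = 0.484) and in NHD13/MSI2 over NHD13 0.34 (adjusted p = 0.345).

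Mcl1 was at 87.9, 78.8 and 78.5 CPM in control, 88.7 and 80.5 CPM in NHD13 and 87.5, 76.1, 85.4 and 117 CPM in NHD13/MSI2. Apart from replicate 4 the groups lay over each other. For Mcl1 the log2 fold change was 0.16 in NHD13/MSI2 over control (95% interval −0.20 to 0.53) and 0.11 in NHD13/MSI2 over NHD13 (−0.30 to 0.53). In NHD13 over control it was 0.050 (−0.38 to 0.48).

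Bcl2l1 varied widely within groups. It was at 91.6, 61.0 and 61.4 CPM in control, 95.8 and 36.8 CPM in NHD13 and 52.1, 44.2, 51.4 and 156 CPM in NHD13/MSI2. Replicate 4 was 3.16 times the mean of replicates 1 to 3, NHD13 replicate 1 was 2.60 times replicate 2, and the groups overlapped. The log2 fold change in NHD13/MSI2 over control was 0.086 (95% interval −1.002 to 1.17) and fell to −0.53 (adjusted p = 0.241) without replicate 4. It was also below 0 without control replicate 2 (−0.015) or 3 (−0.012), so its sign was not settled. In NHD13/MSI2 over NHD13 it was 0.19 and turned to −0.41 without replicate 4 and to −0.29 without NHD13 replicate 2.

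The effector Bak1 was at 7.97, 14.3 and 12.04 CPM in control, 12.6 and 17.7 CPM in NHD13 and 17.4, 13.9, 9.999 and 39.2 CPM in NHD13/MSI2. Replicate 4 was again high, 2.85 times the mean of the others of its group, and the groups overlapped. For Bak1 the log2 fold change in NHD13/MSI2 over control was 0.81 (adjusted p = 0.249) with replicate 4 and 0.27 (adjusted p = 0.529) without it. Its exons share 25.5% of their bases with Ggnbp1 on the other strand. The Bad exons share 20.5% with Gpr137 and the Bcl2 exons 6.09% with D630008O14Rik, each also on the other strand.

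Bad, a BH3-only protein inactivated by survival-factor phosphorylation, was at 29.6, 24.8 and 28.6 CPM in control, 35.1 and 33.4 CPM in NHD13 and 37.0, 42.1, 35.4 and 29.6 CPM in NHD13/MSI2. The ranges of NHD13/MSI2 and control met within rounding, and the log2 fold change was 0.38 (95% interval 0.026 to 0.74, adjusted p = 0.126). Bbc3, which encodes the p53 target PUMA, was at 0.320 to 0.712 CPM in control, 0.692 and 1.06 CPM in NHD13 and 0.207 to 1.40 CPM in NHD13/MSI2, with overlapping groups. Its interval in NHD13/MSI2 over control ran from −1.27 to 1.98 on the log2 scale, so changes within it were not detectable with 4 to 28 counts and the spread between these libraries. Pmaip1, also known as a p53 target, differed by the fold given above. Trp53 itself was at 522 ± 8.81 CPM in control (SD, n = 3) and 520 ± 61.6 CPM in NHD13 (SD, n = 2). It was at 609 ± 14.3 CPM in NHD13/MSI2 (SD, n = 4), with an adjusted p of 0.258 over control. The part of p53 in the levels of these genes was not tested.

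To compare levels between genes, CPM was divided by the length of all annotated exons. In control the order of mean levels per kb of exon was Bid, Mcl1, Bcl2, Bax, Bcl2l1, Bad, Bak1, Bcl2l11, Pmaip1 and Bbc3, from 28.2 ± 3.05 CPM per kb for Bid to 0.252 ± 0.0935 CPM per kb for Bbc3 (SD, n = 3). From Bid through Mcl1 (23.9 ± 1.56 CPM per kb), Bcl2 (20.1 ± 3.62), Bax (19.01 ± 1.54) and Bcl2l1 (15.6 ± 3.83) to Bad (10.8 ± 0.987), each gene overlapped the next within 1 SD, while Bak1, Bcl2l11, Pmaip1 and Bbc3 were each separated from the gene above by more. In NHD13/MSI2 Bid was at 65.6 ± 8.63, Bax at 34.8 ± 6.21, Bcl2 at 33.1 ± 4.02, Mcl1 at 26.8 ± 5.20 and Pmaip1 at 25.8 ± 12.8 CPM per kb (SD, n = 4). Pmaip1 was ninth of the 10 in every control library, 7th and 5th in the NHD13 libraries and 5th in replicates 1 to 3 and 2nd in replicate 4 of NHD13/MSI2. Bid was the highest gene in 9 of 9 libraries by exon length but in 2 of 9 by coding length, so its place at the head of the order depends on the length used.

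The 3 survival genes made up 47.4 ± 2.18% of the summed level per kb in control (SD, n = 3), 37.1 ± 6.77% in NHD13 (n = 2) and 33.2 ± 1.46% in NHD13/MSI2 (n = 4). The control libraries ran from 46.1% to 49.95%, NHD13 was at 41.9% and 32.3%, and NHD13/MSI2 ran from 31.8% to 35.1%. The share of the BH3-only genes was 33.5% in control, 45.3% in NHD13 and 47.7% in NHD13/MSI2. In the same order of groups, the mean sum of the BH3-only genes was 42.0, 80.2 and 109.8 CPM per kb. That of the survival genes was 59.6 ± 8.06, 65.3 ± 9.67 and 76.4 ± 13.2 CPM per kb (SD). The lower survival share was therefore not a lower mean survival sum. Within the BH3-only genes Pmaip1 went from 1.75% in control to 13.4% in NHD13 and 22.6% in NHD13/MSI2. Bcl2 was 33.7% of the survival sum in control, 40.5% in NHD13 and 44.7% in NHD13/MSI2, where replicate 4 was at 28.8% and replicates 1 to 3 at 47.3% to 52.0%. These shares are a description of transcripts per length, follow from the gene differences above and were given no test.

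**Figure D3:**
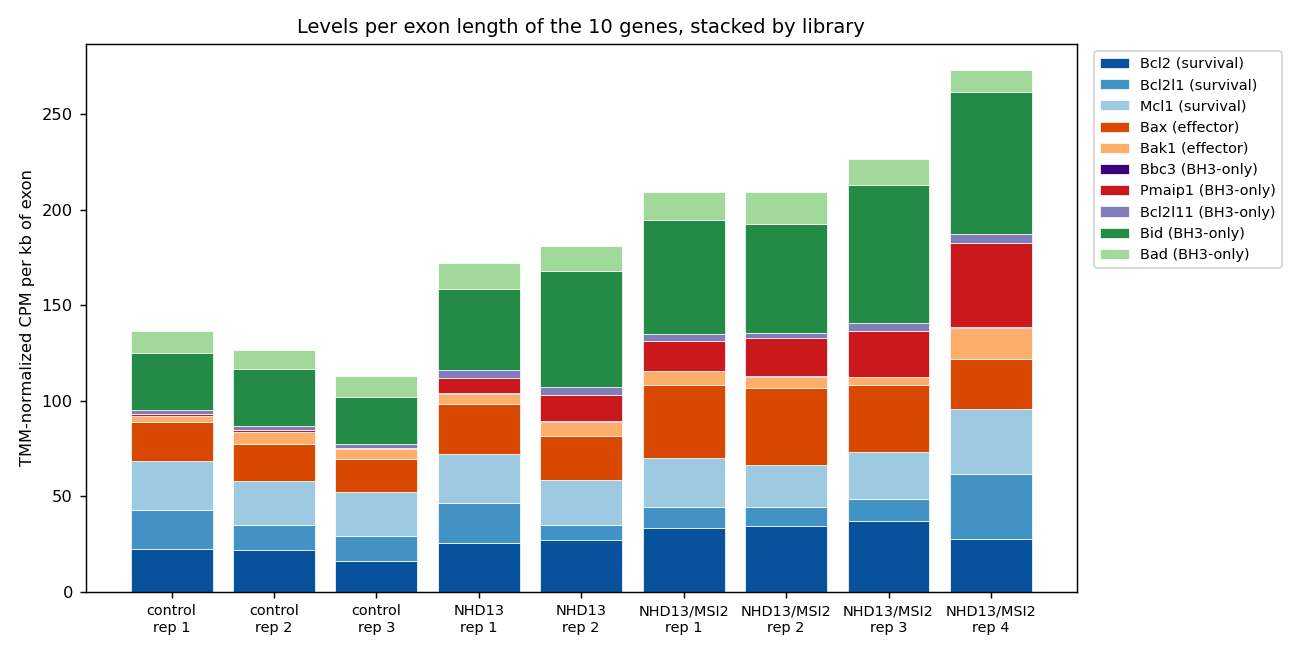
Levels of the 10 genes stacked for each of the 9 libraries (vertical axis, TMM-normalized CPM per kb of exon, from 0), with survival genes in blue, effectors in orange and BH3-only genes in purple, red and green. The total ran from 113 to 137 in control and from 209 to 273 in NHD13/MSI2, and the red Pmaip1 segment was hardly visible in the controls.

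Other genes of the apoptosis pathway were taken from 6 lists. In NHD13/MSI2 over control 3 genes of these lists passed the threshold, in NHD13 over control 0, and in NHD13/MSI2 over NHD13 0, where 11.04%, 1.03% and 3.17% of all genes tested were called in either direction. Of 14 further BCL2 relatives 7 were tested, and Bcl2l14, a relative whose role is less settled, was higher in NHD13/MSI2 (4.91 ± 0.507 CPM in control, n = 3, and 49.1 ± 10.1 CPM, n = 4, SD; log2 fold change 3.32, SE 0.36, adjusted p = 0.000337). In NHD13 Bcl2l14 was at 11.96 and 32.4 CPM (log2 fold change 2.17 over control, adjusted p = 0.0172). Bcl2l14 was therefore higher in every NHD13 and NHD13/MSI2 library than in any control, as were Bcl2, Bax, Pmaip1, Bcl2l11, Bid and Bad. CPM ranges were disjoint, in either direction, for 35.7% of all genes tested in NHD13/MSI2 and control. In NHD13 and control they were disjoint for 37.4%. The Bcl2a1 copies, whose near-identical sequences make their counts uncertain, were each at 1.15 CPM or less in all libraries.

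Of 15 genes of the mitochondrial death machinery (Apaf1, Cycs, Casp9 and others), all were tested and 0 were called in any comparison, with a median log2 fold change of 0.20 in NHD13/MSI2 over control. At an unadjusted p under 0.05 there were 5 of 15 in that comparison, against 32.8% of all genes. The same count was 6 of 10 for the members and 5 of 10 for the death receptor genes. It was 1 of 7 for the caspase inhibitors and 1 of 7 for the further BCL2 relatives. Among 7 caspase inhibitors Naip2, a sensor of the NAIP family that is one of several similar copies, was lower in NHD13/MSI2 than in control (12.7 ± 1.47 against 23.6 ± 3.28 CPM, SD, n = 4 and 3; log2 fold change −0.90, adjusted p = 0.00775). Its log2 fold change over NHD13 was −0.98 (adjusted p = 0.0185). Among 10 death receptor genes Casp8, the initiator caspase that cleaves BID, was higher in NHD13/MSI2 over control, at 301 ± 26.9 against 173 ± 24.8 CPM (SD, n = 4 and 3; log2 fold change 0.80, adjusted p = 0.00987).

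Of 14 genes that modify or degrade the members 13 were tested and 0 were called in any comparison. At an unadjusted p under 0.05 there were 4 of 13 in NHD13/MSI2 over control, against 32.8% of all genes. Usp9x, a deubiquitinase of MCL1, was nearest in NHD13/MSI2 over control (log2 fold change −0.55, adjusted p = 0.0113). Of 15 transcription factors of the members 14 were tested and 0 were called. At an unadjusted p under 0.05 there were 5 of 14 in NHD13/MSI2 over control, near the same 32.8% of all genes. Their median log2 fold change was 0.16 in NHD13/MSI2 over control and 0.025 in NHD13 over control. Nearest to the threshold in NHD13/MSI2 over control were Nfkb1 (log2 fold change 0.76, adjusted p = 0.0188), Stat5b (0.65, 0.0298) and Stat3 (0.65, 0.0315), which encode factors that act downstream of inflammatory and cytokine signals.

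**Figure D4:**
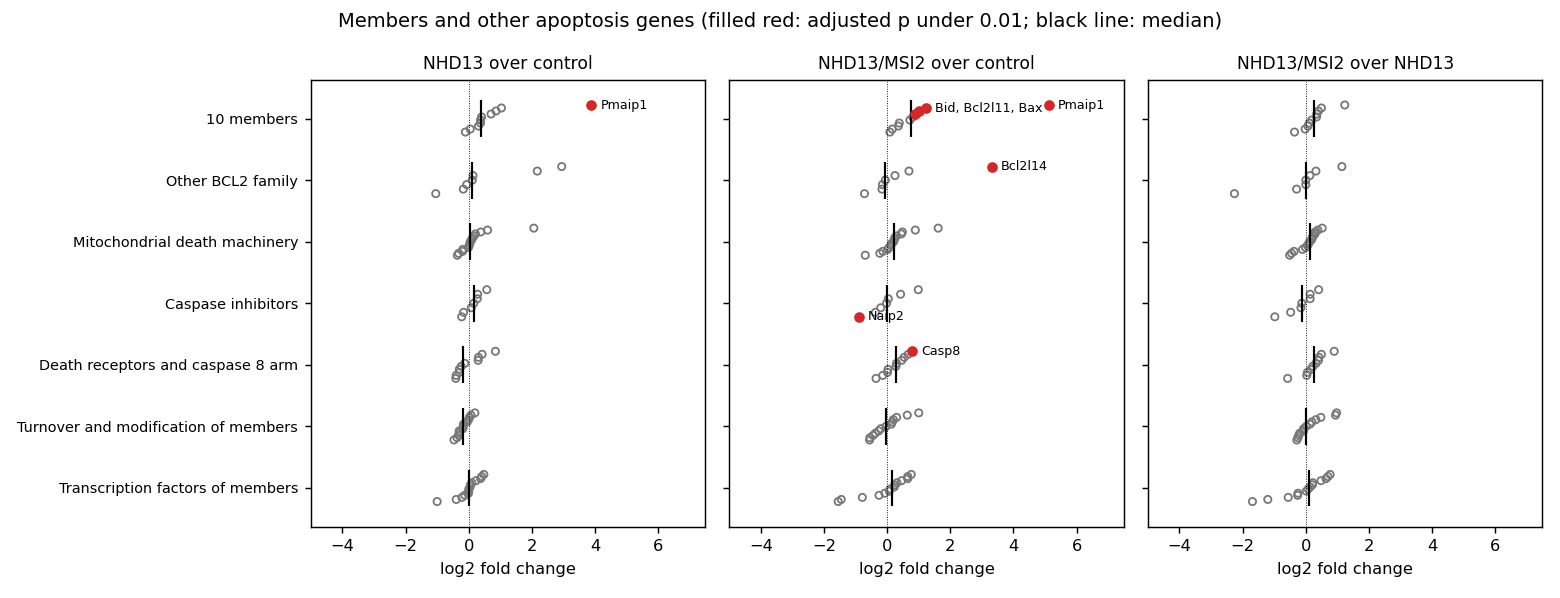
Log2 fold change (horizontal axis) of the 10 genes and of the tested genes of 6 other apoptosis lists in each comparison; each circle is 1 gene, filled red marks an adjusted p under 0.01, and black lines are medians. The 10 genes had the highest median in NHD13/MSI2 over control, 0.77, and no list held a called gene in NHD13/MSI2 over NHD13.

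The genes whose pattern over the 9 libraries was nearest to each called member were found by the mean absolute difference of log2 CPM after centring, among 10972 genes with a mean of at least 50 counts. For Pmaip1 these were Myzap, Cd300lb and Padi2, with differences of 0.286, 0.307 and 0.392. Cd300lb had mean levels of 9.54, 123 and 321 CPM and Padi2 of 33.6, 328 and 1017 CPM in control, NHD13 and NHD13/MSI2. Those of Myzap were 0.217, 4.959 and 7.355 CPM, near the detection floor in control. For Bid the nearest were Itfg3 (0.101), Slc43a2 and Dtx3l, for Bcl2l11 Tfrc (0.152), Dock10 and Tmem218, and for Bax Cst3 (0.0486), Prdx5 and Gipc1. The nearest gene to Pmaip1 lay further from it than the nearest genes of the other members lay from theirs. The differences were not scaled to the range of each gene, which was widest for Pmaip1. They therefore do not rank how unusual the patterns were.

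**Figure D5:**
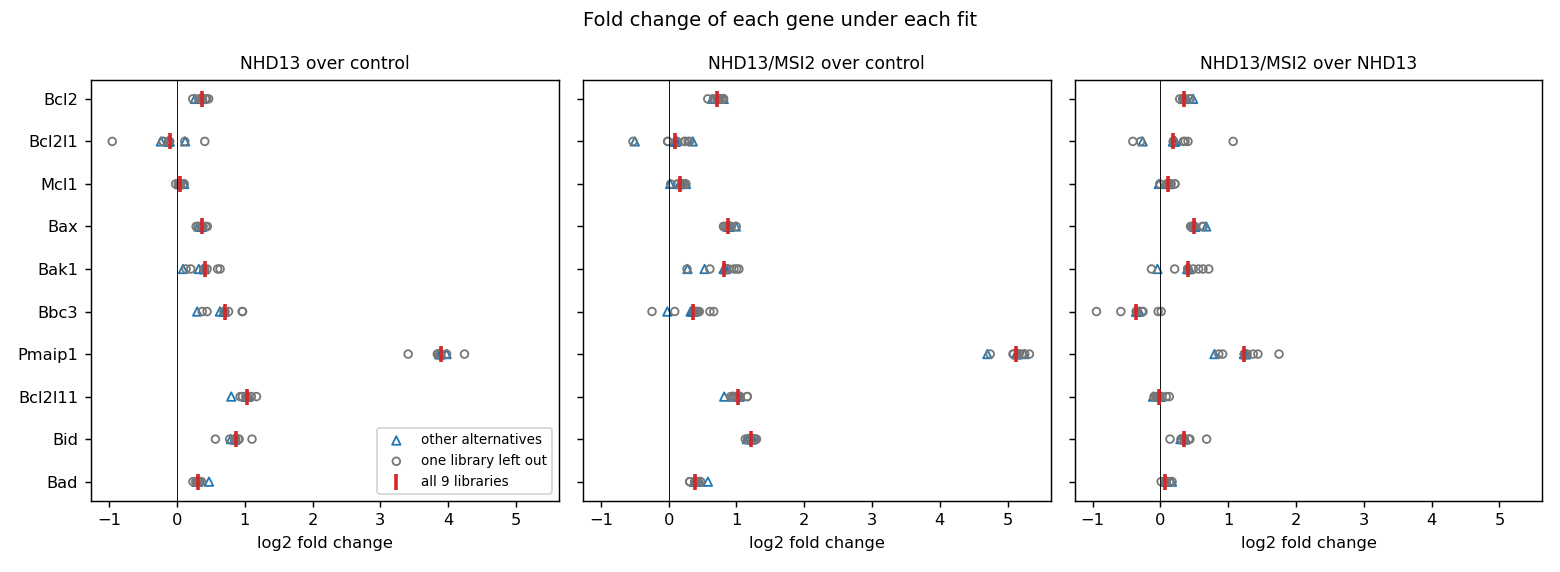
Log2 fold change (horizontal axis) of each gene in each comparison with all 9 libraries (red bar), with 1 library left out (grey circles) and under the other alternatives (blue triangles), without the fit on names as deposited. Pmaip1 stayed between 4.70 and 5.32 in NHD13/MSI2 over control, whereas Bcl2l1 lay on either side of 0 in all 3 comparisons.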

How the data were processed

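RNA-seq counts were analysed for 9 LSK libraries (3 control, 2 NHD13, 4 NHD13/MSI2), grouped by the sample labels. Raw read counts per gene, as whole numbers, were deposited by the authors, and the submitters' processing notes name STAR, HTSeq, DESeq and the mm9 build, whose versions and counting settings are not given in the sources used here. In the deposited table the names after the rows of March genes stand 2 rows too high. These 11942 names (49.6% of the named rows, Mcl1 and Pmaip1 among the members) were moved down by 2 rows and 13 rows were left without a name (0.0253% to 0.0323% of the counts of a library). After the move 23 of 24 abundant genes had a mean of at least 1000 counts, against 9 to 12 after moves of 0, 1, 3 or 4 rows. Totals on named rows were 19242153 to 23013493 counts, and counting limits cover counting error only.

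Counts were filtered by expression, scaled by TMM factors and fitted with edgeR 4.0.16 (quasi-likelihood, 3 group means, R 4.3.3). Genes were called at a Benjamini-Hochberg adjusted p under 0.01 over all 13355 genes tested. The alternatives were RLE factors, DESeq2 1.42.0, other filters on low counts, a fit of the 2 groups alone, the replicate number as a block, names as deposited, a threshold of 0.05 and leaving out each library. Using control replicate 2 as the only control, and coding in place of exon length, were chosen after seeing the data. Scripts were tested on simulated counts. No pair of libraries within a group was a duplicate (chi-square per gene of 18.8 or more), and pairs across groups were not checked. Lengths, positions and overlaps are from GENCODE M21 on GRCm38, not the build of the counts, and describe the genes only. The text names all 10 members, the called genes of each pathway list (at most the 4 of largest change per comparison) and the 3 nearest genes of each called member. Genes that did not pass and were named for context (Trp53, Usp9x, Nfkb1, Stat5b, Stat3, Bcl2l13, Bcl2a1) were chosen after their values were seen. The members and lists were chosen with earlier results of these data known.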

Additional observations from a re-analysis of the deposited data

Results flagged for a closer look

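Bcl2l1 in NHD13/MSI2 replicate 4 was far from the rest of its group. Its level was 156 CPM there, against 52.1, 44.2 and 51.4 CPM in replicates 1 to 3, and the gap to the nearest library was 0.929 of the whole range of the group, above Dixon's 95% critical value for 4 samples. Only this group of 4 libraries was tested, the other groups being smaller, and in it Bcl2l1 was the only 1 of the 10 genes past this value. Chance alone flags about 1 group in 20. The same library was highest in its group for Mcl1, Bak1, Pmaip1 and Bid and lowest for Bcl2, Bax and Bad, with 25.6% of 12332 genes more than 2-fold away from the mean of replicates 1 to 3. The part of this library's other differences in the level of Bcl2l1 was not tested.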

How the results depend on the processing

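No member was called in NHD13/MSI2 over NHD13 under any alternative run. In NHD13/MSI2 over control the 4 calls became 1 to 5 when 1 library was left out, 2 without control replicate 1 or 2, 1 without control replicate 3, 2 without NHD13/MSI2 replicate 1 or 3, and 0 with control replicate 2 as the only control, a fit with fewer samples in which Pmaip1 had a log2 fold change of 5.25 (adjusted p = 0.024). In NHD13 over control the 1 call became 3 with DESeq2 (Bcl2l11 and Bid added), 0 with names as deposited, where Pmaip1 names another row, 0 with control replicate 2 as the only control, and 0 to 1 when 1 library was left out. With coding length the survival share of the summed level per kb was 58.9% in control, 46.5% in NHD13 and 42.5% in NHD13/MSI2, higher than with exon length but in the same order.

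A replicate number is all that the labels give the samples in common. Deviations from group means had correlations of −0.072 to 0.194 between same-numbered libraries and −0.194 to 0.153 between differently numbered ones. In NHD13, with only 2 libraries, the deviations mirror each other, so these values cannot decide whether same-numbered libraries are paired. With the number as a replicate block 0 members were called in NHD13/MSI2 over NHD13, 4 in NHD13/MSI2 over control, where Bcl2 entered and Bcl2l11 left (adjusted p = 0.0263), and 1 in NHD13 over control. Over all genes the block gave 203, 1407 and 101 calls in place of 423, 1474 and 138 in these 3 comparisons. Calls over all genes in NHD13/MSI2 over NHD13 ran from 30 in the fit of the 2 groups alone to 1286 with DESeq2.

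Of the alternatives for single genes 440 kept direction and side of the threshold, 23 fell short of it, 5 passed it and 23 changed sign. All that changed sign were for genes that had not been called in that comparison. Under the replicate block the log2 fold changes in NHD13/MSI2 over NHD13 were −0.26 for Bcl2l1, −0.025 for Mcl1 and −0.045 for Bak1, and that of Bcl2l1 over control was −0.50. Bcl2l11 in NHD13/MSI2 over NHD13 was 0.0017 with RLE factors and 0.0015 with DESeq2. With control replicate 2 as the only control Bbc3 was −0.020 in NHD13/MSI2 and Bcl2l1 0.12 in NHD13. With 1 library left out the ranges in NHD13/MSI2 over NHD13 were −0.41 to 1.07 for Bcl2l1, −0.011 to 0.21 for Mcl1, −0.13 to 0.71 for Bak1, −0.94 to 0.010 for Bbc3 and −0.094 to 0.13 for Bcl2l11. In NHD13/MSI2 over control they were −0.53 to 0.31 for Bcl2l1 and −0.25 to 0.66 for Bbc3, and in NHD13 over control −0.95 to 0.41 for Bcl2l1 and −0.019 to 0.11 for Mcl1. The cause of these changes was not tested.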
